A study of Homo sapiens with 18 samples.

Results

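The genes described here sense DNA damage, signal it and repair it. They were taken as a list of 43 genes, and a probe set of the HGU133A array was counted as a member when its only gene symbol in the platform annotation was on that list. 41 of the 43 genes had at least 1 such probe set, of 11963 genes with one in the series, and FANCA and BRCA2 had none. The 41 genes held 66 of the 22215 probe sets that were not Affymetrix controls, and 17 genes had several. Each gene was represented by its probe set with the highest mean over all arrays, and the other probe sets are given where they differ.

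RNA came from MSTO-211H, an established cell line from a human mesothelioma, the tumour of the pleural lining. Cells received piroxicam and cisplatin together (P/C), piroxicam alone at 760 µM (P) or cisplatin alone at 4.5 µg/mL (C), at the same doses in the combination, or were left untreated, and were harvested after 8 h or 24 h. Piroxicam blocks the cyclooxygenases and is used against inflammation. Cisplatin carries platinum and joins DNA bases within a strand or between strands. Of the 18 arrays, 2 each were P/C 24 h and untreated 24 h, 3 each were P 24 h and C 24 h, and each 8 h group had 2. Every sample came from this 1 line. The authors had removed arrays with outlying intensities, which is why groups hold 2 or 3.

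Cells repair cisplatin links within a strand mainly by nucleotide excision repair. XPC, held by RAD23B and CETN2, or the DDB1 and DDB2 pair recognises the distorted helix, TFIIH with ERCC2 and ERCC3 opens it, XPA and the RPA trimer hold the open strands, and the nucleases ERCC1-ERCC4 and ERCC5 cut on either side. ERCC6 and ERCC8 start the same repair where RNA polymerase has stalled. Links between strands are handled by the Fanconi anemia proteins and homologous recombination. Broken ends are sensed by MRE11, RAD50 and NBN, marked on chromatin by the histone variant H2AX, and signalled by the kinases ATM, ATR, CHEK1 and CHEK2. MSH6 takes part in the recognition of mispaired bases. XPC, DDB2 and GADD45A are known targets of the transcription factor p53.

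Promoter sequence is shown for 4 genes on which the results turn: XPC, which was highest with the combination, DDB2, which was high on arrays with cisplatin, and H2AX and MSH6, which were low with piroxicam alone. Each line gives the 250 bases before the RefSeq transcription start in GRCh38.p14, 5′ to 3′ on the gene's own strand. XPC lies at chr3:14178602-14178851, minus strand, DDB2 at chr11:47214204-47214453, plus strand, H2AX at chr11:119095466-119095715, minus strand, and MSH6 at chr2:47782895-47783144, plus strand. DDB2 had 2 starts in the RefSeq table and MSH6 had 4, and the first listed was used. Capitals mark CCAAT, TTTCCCGC and TTTGAA on either strand, of which TTTCCCGC is a form of the E2F element and TTTGAA of the CHR element of cell cycle genes.
XPC: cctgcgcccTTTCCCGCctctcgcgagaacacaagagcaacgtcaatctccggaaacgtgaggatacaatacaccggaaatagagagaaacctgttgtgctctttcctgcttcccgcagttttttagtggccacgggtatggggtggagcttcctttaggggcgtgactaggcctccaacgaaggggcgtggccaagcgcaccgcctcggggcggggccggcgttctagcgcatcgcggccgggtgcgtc
DDB2: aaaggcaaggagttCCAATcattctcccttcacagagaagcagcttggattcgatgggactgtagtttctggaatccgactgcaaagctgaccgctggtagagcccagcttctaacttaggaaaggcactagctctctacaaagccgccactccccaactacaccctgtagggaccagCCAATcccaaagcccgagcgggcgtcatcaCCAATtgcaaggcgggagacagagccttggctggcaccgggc
H2AX: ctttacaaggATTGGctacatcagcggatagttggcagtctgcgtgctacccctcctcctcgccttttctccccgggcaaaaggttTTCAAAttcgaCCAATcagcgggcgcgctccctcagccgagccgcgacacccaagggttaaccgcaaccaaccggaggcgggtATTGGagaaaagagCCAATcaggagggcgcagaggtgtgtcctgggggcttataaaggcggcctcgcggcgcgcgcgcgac
MSH6: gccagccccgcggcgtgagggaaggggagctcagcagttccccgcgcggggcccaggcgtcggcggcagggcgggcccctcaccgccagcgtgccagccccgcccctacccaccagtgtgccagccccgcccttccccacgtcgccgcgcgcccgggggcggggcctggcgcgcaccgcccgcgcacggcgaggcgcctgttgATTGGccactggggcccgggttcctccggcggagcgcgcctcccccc
H2AX held 4 CCAAT matches and 1 TTTGAA match, DDB2 held 3 CCAAT matches, MSH6 held 1, and XPC held none but 1 TTTCCCGC match. CCAAT was present in 16 of the 38 listed genes with a promoter in the table and in 33% of 27305 promoters, TTTCCCGC in 2 genes and 1.42%, and TTTGAA in 3 genes and 13.6%. TTTGGCGC, TGATGCAA and TGACGTCA were in none of the 38, against 0.553%, 0.82% and 1.77% of all promoters. RPA2, RPA3, FANCI, NBN and GADD45A had no promoter among those searched. The p53 half-site was in BLM only, against 5.53%. No 2 of these motifs overlapped in the printed lines. These are matches of letters and nothing was measured at them.

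The deposited values were log2 signals, and array medians lay between 2.72 and 2.83. Between 15.0% and 16.8% of probe sets reached a signal of 100, a log2 value of 6.64, on each array. The filter that the study describes asks for an interquartile range of 0.25 or more and for a signal of 100 or more on at least 25% of arrays. Applied here to the deposited values, it left 3057 probe sets. The study's methods state a larger number, so its tested set was not the one used here, and the reason for the gap was not found. The listed genes were mostly dim: 21 of the 41 were below a signal of 100 on every array, 13 reached it on 1 to 17 arrays and 7 on all 18. The representative probe set of 14 genes passed the filter (XPC, RAD23B, GTF2H1, RPA1, RPA3, ERCC1, FANCL, FANCI, RAD51C, ATR, RAD50, H2AX, MSH6 and GADD45A), 20 were dim, 4 were dim and steady, and 3 (CETN2, DDB1 and NBN) were steady. A gene that passed because a drug raised it had to differ, so the same limma model was also fitted to all 22215 probe sets, and values from that fit are named as unfiltered. ERCC6, ERCC4 and RAD52 averaged no more than the highest array median, where a signal cannot be told from background.

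Of 15 mesothelial and mesothelioma markers, 4 had a mean signal of at least 100 (KRT8, KRT18, VIM and CDH2, none of them specific to mesothelium). The defining markers MSLN, CALB2, WT1 and KRT5 were below it on all 18 arrays, with mean log2 signals of 2.30, 3.49, 5.12 and 1.97. None of 9 markers of blood cells reached it on any array, and of 11 markers of stroma and endothelium only COL3A1 did, on 4 arrays. Arrays of the same label differed at 24 h in ways that bear on several results below. The array labelled C 24 h replicate 1 had a median rise of 0.21 (log2, against the untreated 24 h mean) over 11 p53 target genes outside the list that passed the filter, against 0.81 and 1.02 in C 24 h replicates 2 and 3. The P/C arrays had 1.11 in replicate 1 and 0.94 in replicate 3, yet for RAD23B and H2AX replicate 1 lay near C replicates 2 and 3, and replicate 3 lay nearer the P arrays. With 2 P/C arrays, which of them is typical cannot be told. Results were recomputed without C replicate 1 and either P/C array, which were chosen for their values, so counts without them are descriptions and not separate evidence. What set these arrays apart was not tested.

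A gene was called at a Benjamini-Hochberg adjusted p of at most 0.05 and a log2 difference of at least 1 in size, with limma fitted to all 18 arrays. With P/C at 24 h, 2 of the 14 tested genes were called against untreated cells (14.3%), both higher (XPC and RAD50), where 6.87% of all tested probe sets were called, 2.65% higher and 4.22% lower. Both of these genes passed the signal filter only through arrays with a drug: XPC reached a signal of 100 on 7 drug-treated arrays at 24 h, RAD50 on 7 arrays with piroxicam, and neither on an untreated array. Their share of calls is therefore no support for a difference, and their unfiltered p-values are given below. With P, 6 of 14 were called (42.9%), XPC and RAD50 higher and FANCI, FANCL, H2AX and MSH6 lower. Of all tested probe sets 14.6% were called, 3.14% higher and 11.4% lower. XPC and RAD50 had passed the filter only through drug-treated arrays, so their part of this share is no support for a difference either. With C none was called, in limma or among the 3057 probe sets as a whole (0%), although 421 probe sets had an unadjusted p under 0.05. In the unfiltered fit, 1 of the 41 genes was called with P/C (2.4%, XPC, against 1.11% of all probe sets, 0.482% higher and 0.626% lower), 9 with P (22.0%, 2 higher and 7 lower, against 3.52%, 0.851% higher and 2.67% lower) and 0 with C (against 0.0045%, with 1830 probe sets at an unadjusted p under 0.05). Here and below, a listed gene counts once, by its brightest probe set, whereas the share of all probe sets counts every one, in the unfiltered fit mostly dim ones. The shares are thus unlike in unit. The comparisons of P/C, P and C with untreated cells share the same 2 untreated arrays, so a shift in either array moves all of them.

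**Figure D1:**
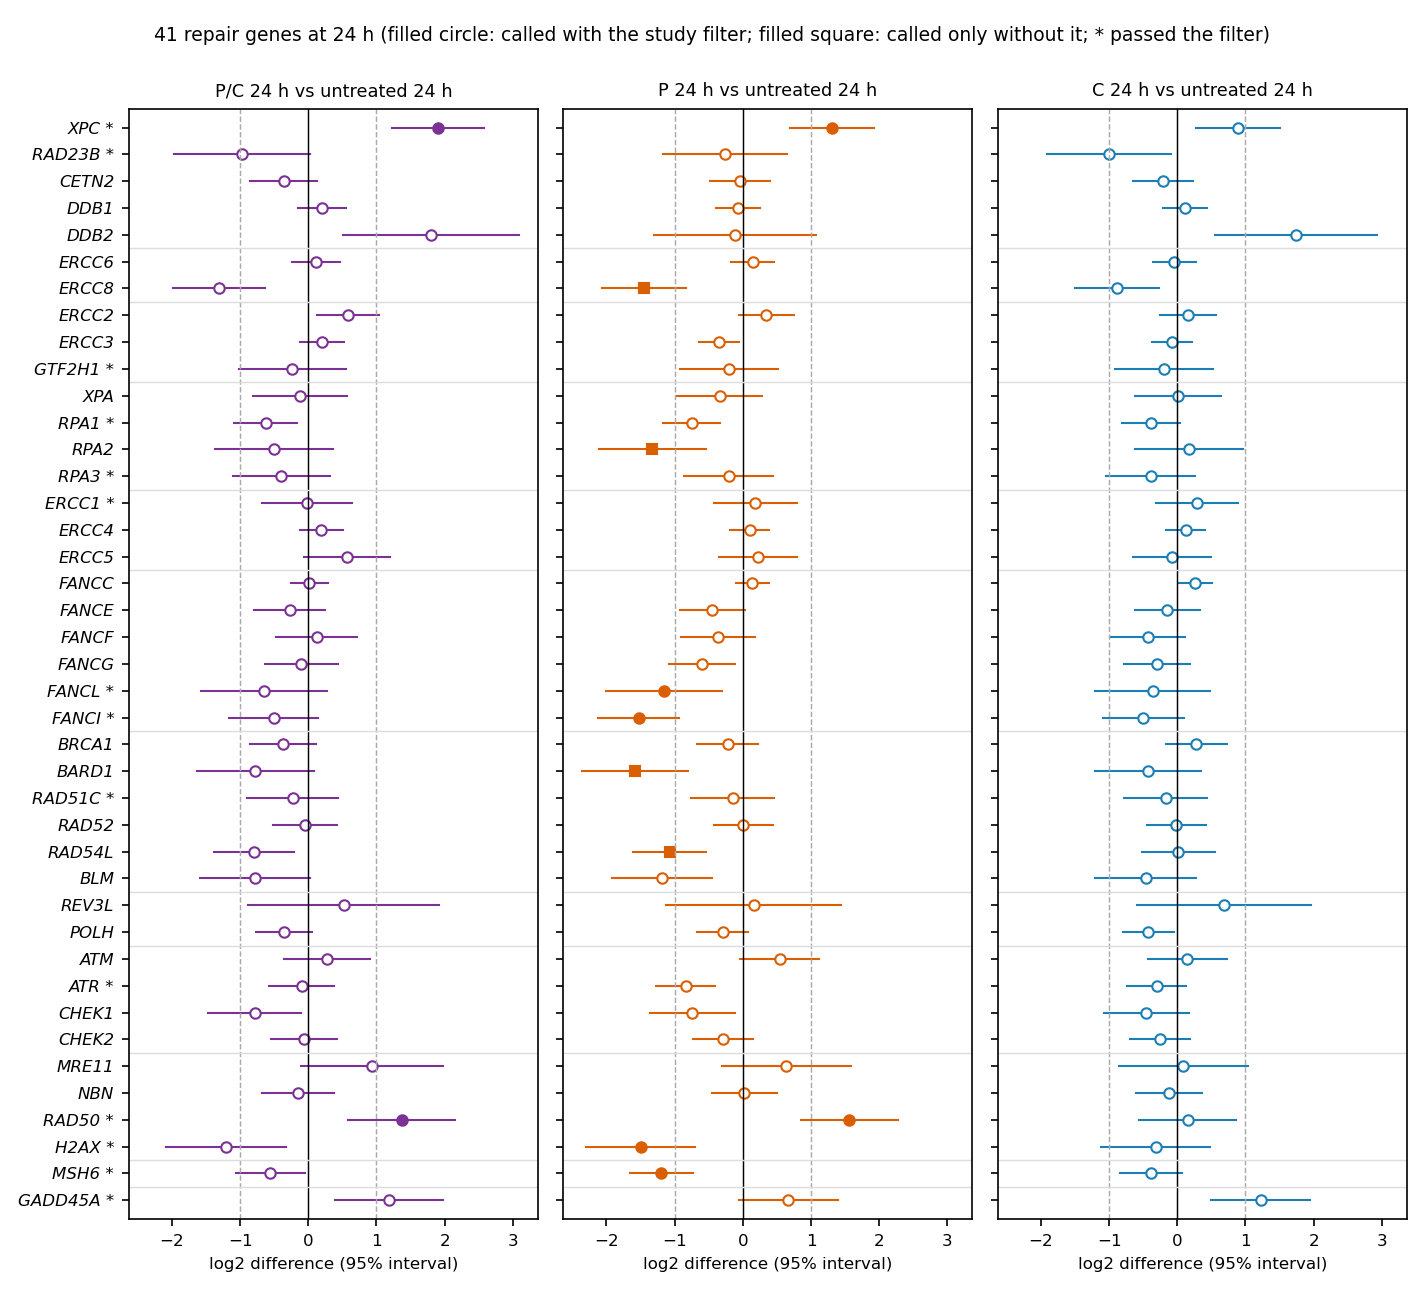
Log2 difference from untreated cells at 24 h for 41 repair genes, grouped by role from top to bottom, with P/C, P and C in separate panels. Points are fitted differences, lines 95% intervals and dashed lines the limits at -1 and 1, and the filled symbols show 2 called genes with P/C, 10 with P in either fit and none with C.

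The middle of the list moved little. Its median difference over the 41 genes was -0.12 with P/C, -0.22 with P and -0.12 with C, and 26, 27 and 25 genes were below 0. Over all 22215 probe sets the unfiltered medians were 0.0008, 0.03 and 0.01, and 49.8%, 44.6% and 47.5% were below 0. Over the 14 tested genes the medians were -0.31, -0.23 and -0.31, against -0.12, -0.22 and -0.10 over all tested probe sets. Centring each array on the median of its tested probe sets brought the last 3 to -0.06, -0.01 and -0.01, which such centring does by construction. In bulk RNA, fewer cells with a transcript and less of that transcript per cell cannot be told apart, and this holds for every difference below.

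XPC, the protein that first recognises a distorted helix in global-genome repair, was highest with the combination. Its log2 signal was 8.00 and 8.23 in P/C, 7.56, 7.64 and 7.35 in P, 6.31, 7.38 and 7.62 in C, and 6.21 and 6.21 in untreated cells at 24 h. Every P/C and P array lay above every untreated array, and in C the first replicate lay beside the untreated arrays while the other 2 lay among the P arrays. The difference from untreated cells was 1.91 ± 0.32 with P/C (SE, adjusted p = 0.00683, limma) and 1.31 ± 0.29 with P (adjusted p = 0.00467), against 0.89 ± 0.29 with C (adjusted p = 0.26). Its unfiltered adjusted p was 0.0214 with P/C, 0.0146 with P and 0.435 with C. Without untreated replicate 2 the P/C difference remained 1.91 at an adjusted p of 0.0731, and without C replicate 1 the C difference was 1.29 at 0.00152. P/C exceeded P by 0.60 (95% interval -0.02 to 1.22) and C by 1.02 (0.40 to 1.63), neither called.

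DDB2, which binds ultraviolet and some other lesions as part of a ubiquitin ligase, was high on 4 arrays, all with cisplatin. It had log2 signals of 8.81 and 7.52 in P/C, 6.33, 6.36 and 6.06 in P, 6.55, 8.95 and 8.82 in C, and 6.51 and 6.22 in untreated cells at 24 h. Both P/C arrays and 2 of 3 C arrays were higher than any array of P or untreated cells, and C replicate 1 lay close to the untreated arrays. DDB2 reached a signal of 100 on 4 arrays and so failed the filter, which asks for 25% of 18. In the unfiltered fit the difference from untreated cells was 1.80 ± 0.60 with P/C (adjusted p = 0.16), -0.11 ± 0.55 with P (adjusted p = 0.957) and 1.74 ± 0.55 with C (adjusted p = 0.435). Without C replicate 1 the C difference was 2.52 (adjusted p = 0.00183), and without P/C replicate 1 the P/C difference was 1.16 (adjusted p = 0.541). P was lower than C by a called margin, a difference of -1.85 ± 0.49 (adjusted p = 0.0443, unfiltered limma).

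RAD23B, the partner that stabilises XPC, was low on 3 arrays on which XPC was above its untreated level. Its log2 signal was 8.53 and 10.06 in P/C, 10.24, 9.88 and 9.90 in P, 10.15, 9.30 and 8.34 in C, and 10.24 and 10.28 in untreated cells at 24 h. P/C replicate 1 and C replicates 2 and 3 lay below all other 24 h arrays. The differences, -0.97 ± 0.47 with P/C (adjusted p = 0.181) and -1.0 ± 0.43 with C (adjusted p = 0.32), were not called, and the C difference was -1.45 (adjusted p = 0.0446) without C replicate 1. Without P/C replicate 1 the P/C difference was -0.20 (adjusted p = 0.804). A second RAD23B probe set followed it, at 7.82 and 8.38 in P/C, 8.72, 7.70 and 7.23 in C, and 8.44 and 8.91 in untreated cells. The other recognition genes were steady, with DDB1 and CETN2 between -0.36 and 0.20 in all 3 comparisons with untreated cells.

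GADD45A, a stress-induced protein that binds PCNA and restrains growth, was the brightest gene of the list. It had log2 signals of 11.23 and 10.60 in P/C, 10.55, 10.31 and 10.33 in P, 10.06, 11.29 and 11.51 in C, and 9.93 and 9.53 in untreated cells at 24 h. All 8 drug-treated arrays lay above both untreated arrays, with C replicate 1 the lowest of the 8. No difference was called: 1.18 ± 0.37 with P/C (adjusted p = 0.0539), 0.67 ± 0.34 with P (adjusted p = 0.154) and 1.22 ± 0.34 with C (adjusted p = 0.207). The P/C value passed at a signal minimum of 200 (adjusted p = 0.0422), and the C value was 1.67 (adjusted p = 0.00122) without C replicate 1. A list of 27 p53 targets, which holds XPC, DDB2, POLH and GADD45A too, had 13 tested genes, and their median difference was 1.18 with P/C, 0.58 with P and 0.88 with C. 4 of the 13 were called higher with P/C (GDF15 at 2.99, CDKN1A at 2.57, SESN1 at 2.01, and XPC), 2 with P (GDF15 at 2.11, and XPC) and none with C, where the shares of all tested probe sets called higher were 2.65%, 3.14% and 0%. The 13 had passed the filter, which favours genes that a drug changed, and XPC passed it only through drug-treated arrays. Their medians and shares are therefore no support for a difference. PPM1D (-1.43) and TIGAR (-1.22), also of this list, were called lower with P than with C. POLH, a polymerase that copies past lesions, was not among the tested probe sets and had unfiltered differences of -0.36, -0.29 and -0.43.

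**Figure D2:**
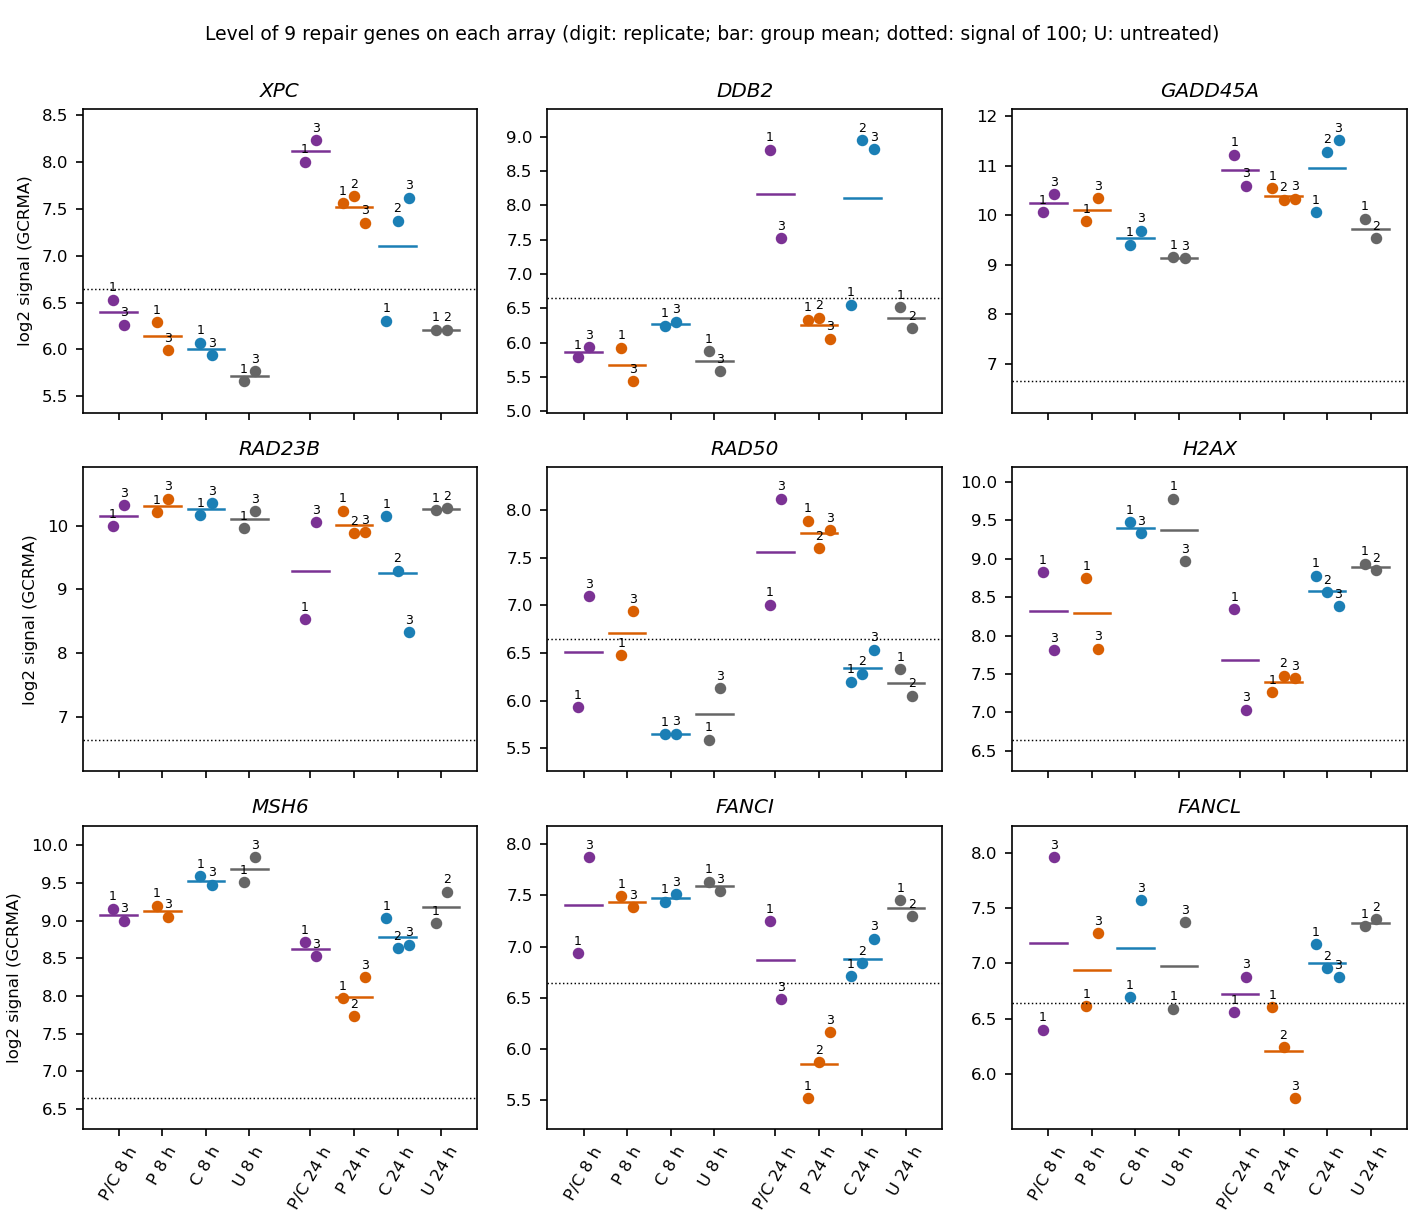
Log2 signal of 9 repair genes on each of 18 arrays, by drug and time, with points numbered by replicate, bars at group means and a dotted line at a signal of 100. XPC at 24 h sits between 7.35 and 8.23 on every P/C and P array against 6.21 in untreated cells, whereas DDB2 is above 7.5 on 4 arrays only.

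RAD50, the coiled-coil arm of the complex that tethers broken ends, was high at 24 h wherever piroxicam was given. Its log2 signal was 7.01 and 8.12 in P/C, 7.88, 7.60 and 7.79 in P, 6.20, 6.28 and 6.54 in C, and 6.33 and 6.05 in untreated cells at 24 h. All 5 arrays with piroxicam lay above all 5 without it, and C overlapped with untreated cells. RAD50 differed from untreated cells by 1.56 ± 0.34 with P (adjusted p = 0.00384), by 1.37 ± 0.37 with P/C (adjusted p = 0.0326) and by 0.15 ± 0.34 with C (adjusted p = 0.855). Its unfiltered adjusted p was 0.0146 with P and 0.0796 with P/C. The P/C call was thus lost there, and also with array weights (adjusted p = 0.0736), without P/C replicate 3 (0.82, adjusted p = 0.22) and without either untreated array (1.51 and 1.23, adjusted p = 0.0598 and 0.239), and the P call without untreated replicate 2 (1.43, adjusted p = 0.0544). A second, dim RAD50 probe set, with a mean of 2.99, differed by 0.45 with P and 0.22 with P/C and was not called. The brightest probe sets of the gene's partners failed the filter, and neither was called in the unfiltered fit. MRE11, under a signal of 100 on every array, differed by 0.93 with P/C (0.15 in replicate 1 and 1.71 in replicate 3) and by 0.64 with P. NBN, whose 4 probe sets differed by -0.04 to 0.29 with P, differed by -0.15 with P/C and 0.03 with P on its brightest. With P/C the other 3 NBN probe sets went the other way, at 0.48, 0.80 and 0.50, none called.

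H2AX, the histone variant phosphorylated around breaks, was low on the piroxicam arrays. Its log2 signal was 8.34 and 7.03 in P/C, 7.26, 7.48 and 7.45 in P, 8.78, 8.56 and 8.38 in C, and 8.93 and 8.85 in untreated cells at 24 h. The P arrays were all below the C and untreated arrays, P/C replicate 3 was below them, and P/C replicate 1 lay just under C. The difference from untreated cells was -1.5 ± 0.38 with P (adjusted p = 0.00915), -1.20 ± 0.41 with P/C (adjusted p = 0.0693) and -0.32 ± 0.38 with C (adjusted p = 0.698). Without untreated replicate 1 or 2 the P difference was -1.45 and -1.54 at adjusted p of 0.0539 and 0.065, and without P/C replicate 1 the P/C difference was -1.86 (adjusted p = 0.0121). The other 3 H2AX probe sets averaged 2.05 to 2.78, at or under the array medians, and differed by -0.41 to -0.11 with P.

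MSH6, the mismatch recognition protein, fell with piroxicam alone on both of its brighter probe sets. It had log2 signals of 8.72 and 8.53 in P/C, 7.97, 7.73 and 8.25 in P, 9.04, 8.64 and 8.68 in C, and 8.96 and 9.39 in untreated cells at 24 h. The 3 P arrays lay below all 7 others. MSH6 differed from untreated cells by -1.19 ± 0.22 with P (adjusted p = 0.00141), -0.55 ± 0.24 with P/C (adjusted p = 0.134) and -0.39 ± 0.22 with C (adjusted p = 0.42). Without untreated replicate 2 the P difference was -0.98, under the fold limit. It was also under that limit with each array centred on the median of its tested probe sets (-0.98, adjusted p = 0.00532). Its second probe set had 6.06, 5.22 and 6.31 in P, against 7.43 and 7.53 in untreated cells, and a called difference of -1.62 ± 0.32 (adjusted p = 0.00235). Another probe set averaged 1.78 and differed by 0.11.

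FANCI, which is clamped on DNA with FANCD2 at a cross-link, fell with piroxicam alone. It had log2 signals of 7.25 and 6.49 in P/C, 5.52, 5.87 and 6.17 in P, 6.71, 6.84 and 7.08 in C, and 7.46 and 7.30 in untreated cells at 24 h. The P arrays were below all others. The difference was -1.53 ± 0.28 with P (adjusted p = 0.00158) and stayed called without any single array, against -0.51 ± 0.31 with P/C (adjusted p = 0.279) and -0.50 ± 0.28 with C (adjusted p = 0.423). A dimmer FANCI probe set, with a mean of 5.39, differed by -0.38 with P and was not called. FANCL, the ubiquitin ligase subunit of the core complex that modifies FANCI and FANCD2, had 6.56 and 6.88 in P/C, 6.60, 6.25 and 5.79 in P, 7.18, 6.96 and 6.88 in C, and 7.33 and 7.40 in untreated cells. P overlapped with P/C and lay below C and untreated cells. Its P difference of -1.15 ± 0.40 (adjusted p = 0.0414) was lost without P replicate 2 (-1.17, adjusted p = 0.0781) or 3 (-0.94, adjusted p = 0.139), without untreated replicate 1 (-1.19, adjusted p = 0.124) or 2 (-1.12, adjusted p = 0.184), in the unfiltered fit (adjusted p = 0.126) and under quantile normalization (-0.97, adjusted p = 0.0635). The core complex genes FANCC, FANCE, FANCF and FANCG were all under a signal of 100 and differed with P by 0.14, -0.44, -0.37 and -0.60, none called.

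4 dim genes were called with piroxicam in the unfiltered fit only, all lower. BARD1, which pairs with BRCA1, had log2 signals of 3.18, 4.21 and 3.58 in P, against 4.77 and 5.71 in untreated cells, and a difference of -1.58 ± 0.36 (adjusted p = 0.02). RAD54L, a DNA motor protein of homologous recombination, had 2.72, 2.92 and 3.02, against 3.85 and 4.07, and a difference of -1.07 ± 0.25 (adjusted p = 0.022). In both genes every P array lay below both untreated arrays. RAD54L in P lay close to the array medians (2.72 to 2.83), so the size of its fall cannot be told. ERCC8, of transcription-coupled repair, had 3.60, 4.24 and 3.34 in P, against 4.71 and 5.64 (-1.45 ± 0.29, adjusted p = 0.00996). ERCC8 also had the most negative P/C difference among the 41 genes, with signals of 3.85 and 3.90 (-1.31 ± 0.31, adjusted p = 0.0558), and had 4.20, 4.38 and 4.29 in C (-0.89 ± 0.29, adjusted p = 0.435), neither called. RPA2, the middle subunit of the single-strand binding trimer, had 4.33, 4.85 and 3.27 in P, against 5.30 and 5.66 (-1.33 ± 0.37, adjusted p = 0.0494). All 4 genes were below a signal of 100 on all 18 arrays, and a second ERCC8 probe set differed by -0.06.

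The partners of these genes were not called. BRCA1 differed by -0.22 with P, RAD51C by -0.15 (and by -0.90 on a dimmer probe set, unfiltered adjusted p = 0.0309), RAD52 by 0.01 and BLM by -1.19 (unfiltered adjusted p = 0.0596). RPA1, the large RPA subunit, had 8.21, 8.17 and 8.16 in P, against 8.95 and 8.91 in untreated cells, a difference of -0.75 ± 0.20 (adjusted p = 0.0121) that passed the p limit and not the fold limit. RPA3, the small one, differed by -0.21. ATR, the kinase activated by single-strand DNA, was in the same position with 6.32, 6.51 and 6.24 in P, against 7.14 and 7.24 (-0.84 ± 0.20, adjusted p = 0.00723), and its second probe set differed by -0.83. Both genes had P arrays wholly below untreated arrays. CHEK1, the kinase that ATR activates, differed by -0.74 on its brighter probe set and by -1.35 on the other, which failed the filter and was called in the unfiltered fit (adjusted p = 0.00883). ATM and CHEK2, the kinases of the break pathway, differed by 0.54 and -0.29.

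No nuclease or TFIIH gene was called at 24 h. ERCC1, ERCC4 and ERCC5, the nucleases, differed by 0.10 to 0.23 with P and by -0.02 to 0.57 with P/C. The TFIIH genes ERCC2, ERCC3 and GTF2H1 differed by -0.35 to 0.35 with P and by -0.23 to 0.58 with P/C. XPA, the damage verifier, differed by -0.34, ERCC6 by 0.14, and REV3L, the catalytic subunit of polymerase zeta, by 0.16 with P and 0.68 with C, where it had 5.53, 7.05 and 7.15 in C, against 5.95 and 5.84 in untreated cells. C replicate 1 lay apart from the other 2, as for XPC and DDB2.

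**Figure D3:**
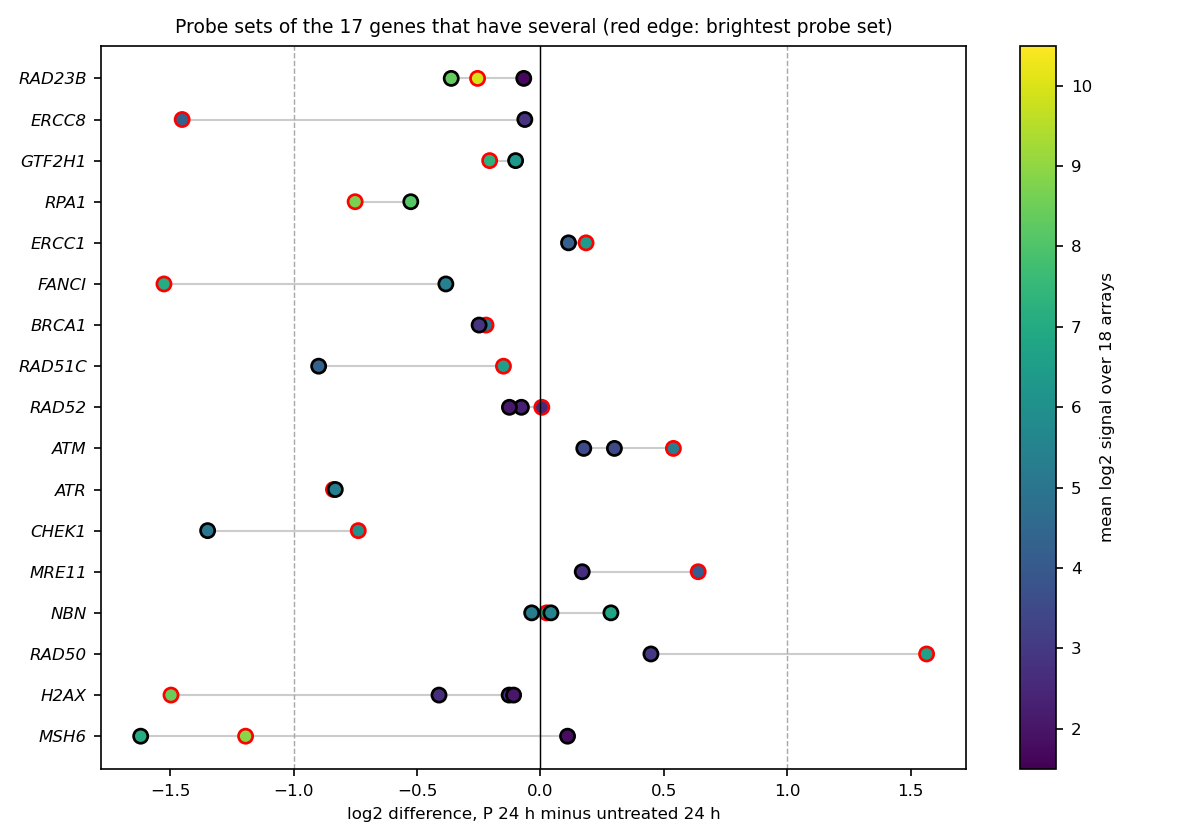
Log2 difference between P 24 h and untreated 24 h for each probe set of the 17 genes with several, coloured by mean log2 signal over 18 arrays, with a red edge on the brightest. MSH6 has a pair of bright probe sets at -1.19 and -1.62, while RAD50 and H2AX have differences of 1.56 and -1.5 on the brightest probe set only.

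Piroxicam and cisplatin were also compared directly at 24 h. 3 of 14 genes were called (21.4%), against 10.9% of all tested probe sets, 3.21% higher and 7.65% lower. Of the 3, RAD50 had passed the signal filter only through arrays with piroxicam, so its part of this share is no support for a difference. RAD50 was higher with P than with C (1.41 ± 0.30, adjusted p = 0.00442), and FANCI (-1.02 ± 0.25, adjusted p = 0.00914) and H2AX (-1.18 ± 0.34, adjusted p = 0.0203) were lower with P. RAD50 was called without any single array. FANCI was under the fold limit under quantile normalization (-0.94, adjusted p = 0.019), with centred arrays (-0.90, adjusted p = 0.0208), and without P replicate 1 (-0.86, adjusted p = 0.0469) or C replicate 3 (-0.92, adjusted p = 0.0393), and H2AX lost its call in the unfiltered fit (adjusted p = 0.0644) and without C replicate 1, C replicate 2, P replicate 1 or P replicate 3 (-1.08, -1.19, -1.11 and -1.21, adjusted p = 0.052, 0.0523, 0.0632 and 0.0536). MSH6 differed by -0.81 ± 0.19 (adjusted p = 0.00806), under the fold limit, and by a called -1.36 on its second probe set. The unfiltered fit called 5 of the 41 (12.2%, against 2.78%, 1.07% higher and 1.71% lower), RAD50 higher and DDB2, FANCI, RAD54L (-1.09) and RPA2 (-1.49) lower.

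No listed gene separated the combination from either single drug by a call. P/C against P called 0 of 14 genes, against 0.164% of all tested probe sets, and P/C against C called 0, against 0.0981% (limma), with 608 and 453 probe sets at an unadjusted p under 0.05. In the unfiltered fit DDB2 was 1.91 higher in P/C than in P, not called. Among the 14 tested genes, the largest differences from P were 1.02 for FANCI (95% interval 0.42 to 1.61, adjusted p = 0.0702) and 0.74 for ATR (0.31 to 1.17, adjusted p = 0.0698), and from C 1.22 for RAD50 (0.51 to 1.94, adjusted p = 0.147) and 1.02 for XPC. Beyond the sum of the single drugs, P/C differed by 1.52 for FANCI (0.67 to 2.36), 1.05 for ATR (0.44 to 1.65) and 1.03 for MSH6 (0.38 to 1.68), at adjusted p of 0.174, 0.174 and 0.178, and 0% of tested probe sets were called. Without P/C replicate 3, FANCI was called in the comparison with P (1.40, adjusted p = 0.0122), as was RAD23B (-1.48, adjusted p = 0.0453), and FANCI was called in the difference from the sum (1.90, adjusted p = 0.0175). Without P/C replicate 1, RAD50 differed from C by 1.78 and H2AX by -1.54. RAD50 had passed the signal filter only through arrays with piroxicam, so its value here is no support for a difference. Where a group is left with 1 array, limma takes its spread from the other groups.

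At 8 h none of the 14 tested genes was called with any drug. The shares of all tested probe sets were 0.622% with P/C, 0.491% with P and 0% with C, and 362, 293 and 35 probe sets had an unadjusted p under 0.05. In the unfiltered fit none of the 41 was called either, against 0.09% of all probe sets with P/C, 0.0675% lower. GADD45A had 10.07 and 10.43 in P/C, 9.88 and 10.34 in P, 9.41 and 9.69 in C, and 9.15 and 9.14 in untreated cells, with every drug-treated array above both untreated ones. Its differences were 1.10 with P/C (adjusted p = 0.239), 0.96 with P (adjusted p = 0.386) and 0.40 with C. H2AX had 8.82 and 7.81 in P/C, 8.75 and 7.83 in P, 9.47 and 9.33 in C, and 9.78 and 8.97 in untreated cells, with differences of -1.06 and -1.09 in P/C and P. The lower of each pair was replicate 3 in all 4 groups, and the 8 h arrays deviated together by replicate number. Against the untreated array of the same number, H2AX differed by -0.96 and -1.16 with P/C and by -1.03 and -1.14 with P, in replicates 1 and 3. With replicate number as a block for the 8 h arrays its adjusted p was 0.169 with P/C and 0.16 with P, and for GADD45A 0.202 and 0.322, so none of the 14 genes was called there either. XPC (0.68 with P/C) and RAD50 (0.84 with P) were on the same side as at 24 h without passing the test. The change of each drug's effect between 8 h and 24 h was called for none of the 14 genes (P/C 0.0654%, P 0.196% and C 0% of all tested probe sets), and untreated cells at 24 h against 8 h called none (0.0981%).

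Of 17 tested repair and checkpoint genes outside the list, 4 were called with P at 24 h (23.5%), all lower, against 14.6% of all tested probe sets (11.4% lower), and 1 with P/C (5.88%, against 6.87%). With P at 24 h, UNG (-1.60) and TDG (-1.31), glycosylases of base excision repair, were lower in a list of which 4 genes were tested, as were TOPBP1 (-1.54), the activator of ATR, of 4 tested checkpoint genes and RECQL (-1.06), a helicase, of 2 tested recombination genes. With P/C, UNG (-1.33) was lower and no other gene of these lists was called. No gene was called with C. P against C called 4 of the 17 (23.5%, against 10.9%), UNG, TDG and TOPBP1 lower and RAD17 (1.29), a checkpoint clamp loader, higher. The lists of end joining, mismatch, translesion, Fanconi and further nucleotide excision repair genes had 1 to 3 tested genes each and none was called against untreated cells in the filtered fit.

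Which arrays entered decided part of these counts. Without C replicate 1, C called 3 of the 14 genes, GADD45A (1.67, adjusted p = 0.00122) and XPC (1.29, adjusted p = 0.00152) higher and RAD23B (-1.45, adjusted p = 0.0446) lower, and a fit that weighted arrays called the same 3. That fit took its weights from the same values, 0.39 for C replicate 1 against 1.28 and 2.20 for replicates 2 and 3, so it is no separate evidence. With C replicate 1 left out, the P/C calls depended on which of the 2 P/C arrays was kept. With P/C replicate 3 kept, XPC and RAD50 were called higher and H2AX lower (-1.86, adjusted p = 0.0103) against untreated cells, and 3 genes were called against C (RAD23B and RAD50 higher, H2AX lower) and none against P. With P/C replicate 1 kept, XPC (1.79, adjusted p = 0.000857) and GADD45A (1.5, adjusted p = 0.0077) were called higher and RAD23B lower (-1.73, adjusted p = 0.00883) against untreated cells, and none was called against C and 2 against P (FANCI higher, RAD23B lower). XPC was thus called with either P/C array, and RAD50, H2AX, GADD45A and RAD23B with 1 of them. P against untreated cells kept the same 6 calls in both, and P against C called 5. In the unfiltered fit without C replicate 1 and P/C replicate 1, DDB2 differed from untreated cells by 2.52 with C and by 1.16 with P/C. The P/C value there rests on P/C replicate 3 alone. The arrays left out were chosen for their values, so these differences are no separate evidence. XPC and RAD50 had also passed the signal filter only through drug-treated arrays, so their calls here are no support for a difference.

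**Figure D4:**
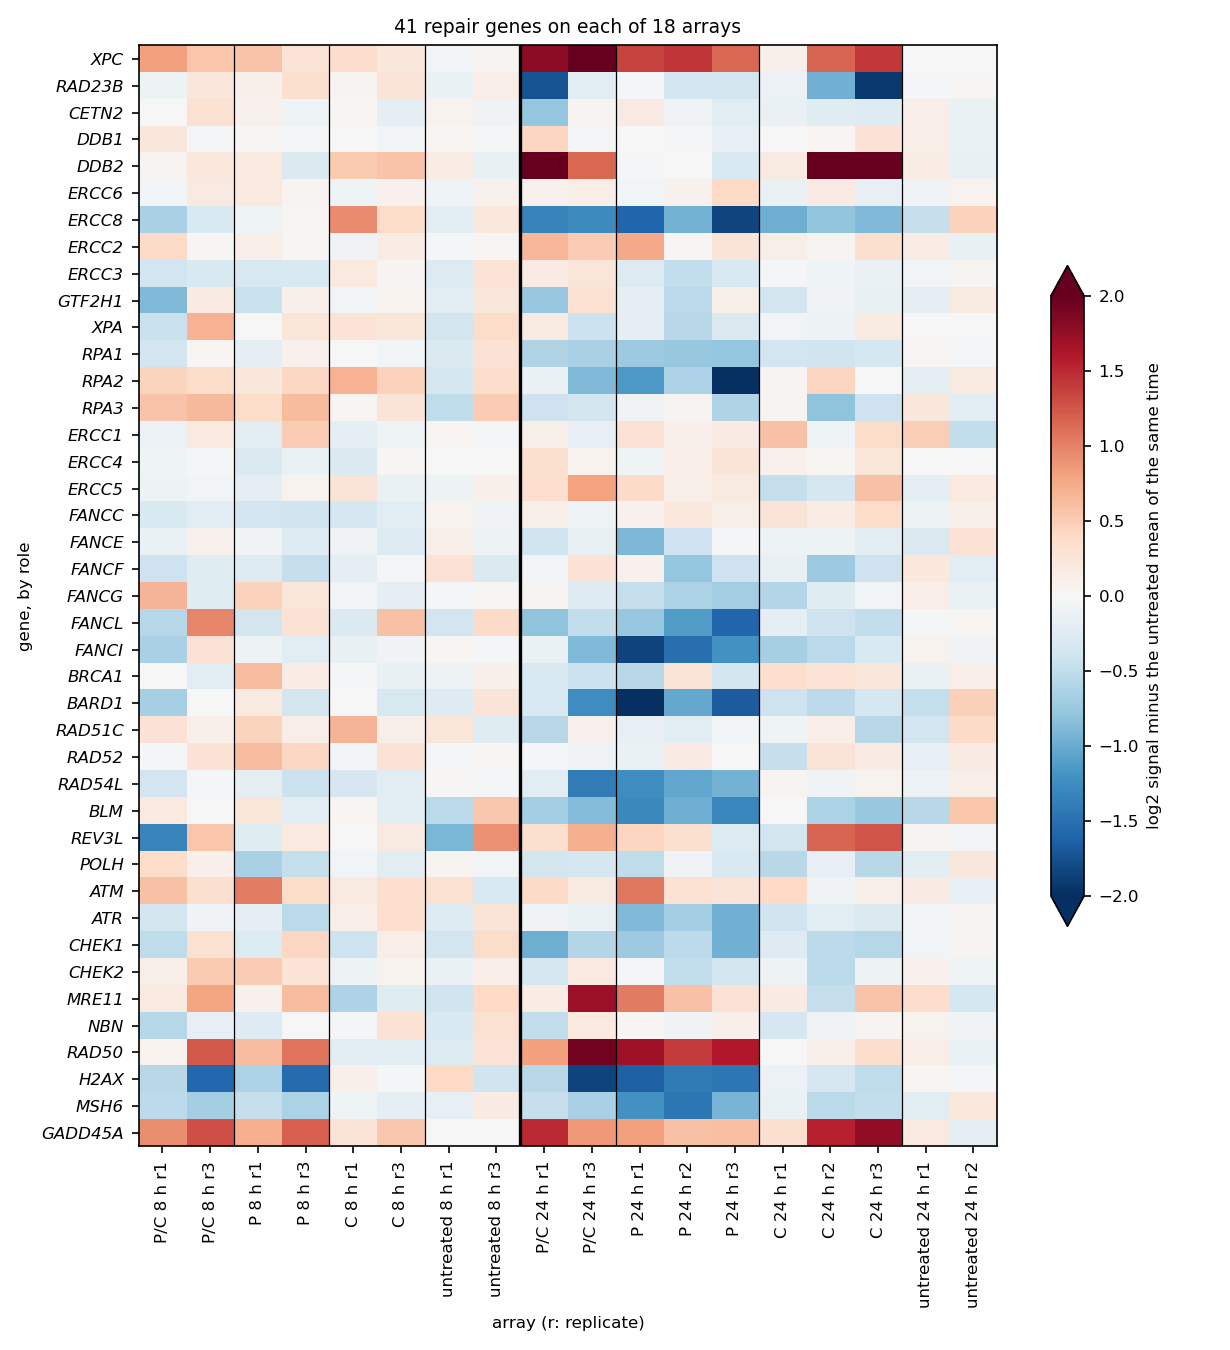
Each of 41 repair genes on each of 18 arrays as log2 signal minus the untreated mean of the same time, red above and blue below, with the 8 h arrays left of the heavy line. C 24 h replicate 1 is pale in the lines of XPC, DDB2 and GADD45A, where C replicates 2 and 3 and P/C replicate 1 are red, and P/C replicate 3 resembles the P arrays for RAD50 and H2AX.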

How the data were processed

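RNA of 18 MSTO-211H cultures was hybridised to Affymetrix HGU133A arrays. Per the labels and methods, the authors left out arrays after a quality check, and deposited log2 signals made with GCRMA, which corrects background and normalizes between arrays. Differences of dim probe sets can be understated on this scale. The number of arrays limits the precision. The study calls the replicates biological triplicates, but whether equal replicate numbers mark a common culture or day is unstated, so p-values measure only the spread between these arrays.

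Groups followed the labels. Gene names came from the platform annotation: 19071 probe sets had 1 symbol, 1043 had several and 2169 are not listed there. limma 3.58.1 in R 4.3.3 was fitted to all 18 arrays with 1 mean per group, after the filter that the study describes, applied to the deposited values (3057 probe sets, which is not the number in its methods), and without it. P-values were adjusted within each comparison of a fit, over all probe sets tested, and not across comparisons. The 68 control probe sets were left out. Genes, lists and rules were chosen with earlier results of these data known. Values per array are given for genes called in the filtered fit and for DDB2, which the study names; of other genes, those of RAD23B, GADD45A, ATR, RPA1, RPA2, BARD1, RAD54L, ERCC8 and REV3L were chosen after their values were seen. The script was tested on simulated data. Same-numbered 8 h arrays deviated together, with r between 0.20 and 0.66. Each 8 h group held 2 arrays, so replicate 3 mirrored replicate 1 and gave the same r. At 24 h, r lay between -0.22 and 0.39, and 5 of 12 pairs were over 0.1. The numbers thus pair the 8 h arrays, and whether they pair some of the 24 h arrays cannot be told. The main model held no replicate term, and a block for the 8 h arrays was an alternative. Alternatives were other scalings, filters, array weights, a replicate block and leaving out arrays. Promoters were those of RefSeq, and 38 of 43 genes matched.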

Additional observations from a re-analysis of the deposited data

How the results depend on the processing

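Of 190 counts of called genes under an alternative, 158 stayed within 1.5 times of their count. Most comparisons called 0 listed genes in the main model, and a 0 that stayed 0 is among the 158, so this share does not measure how steady the calls are. Of 394 values of single genes, 317 kept their side of the threshold, 32 lost and 39 gained a call, and 6, all of RAD23B and not called with all arrays, changed sign. These were P/C against P without P/C replicate 1 (0.050, also with C replicate 1 left out, with and without the filter) and P/C against C without C replicate 3 (-0.43) or P/C replicate 3 (-0.73, or -0.28 with C replicate 1 left out too). Leaving out each array, the first ran between -1.48 and 0.050 and the second between -0.73 and 0.80. For P/C against untreated cells at 24 h, 1 gene in place of 2 was called without the filter, at a signal of 200, with array weights, with the replicate block and from the arrays of the comparison alone. A replicate block for the 8 h arrays gave 4, and the unfiltered fit without P/C replicate 1 and C replicate 1 gave 5. The block changed no other count by over 1.5 times. For P, the count was 2 at a signal of 200 and 10 in the unfiltered fit without those arrays. For P against C it was 5 without the filter, 1 at a signal of 200, 5 without those arrays and 7 without the filter and them. For C it was 3 with array weights, 3 without those arrays and 4 without the filter and them. P/C against C gave 3 without them, with and without the filter, and P/C against P gave 1 without the filter and them. Without P/C replicate 3 and C replicate 1, C gave 3, P against C 5, P/C against P 2, and P/C minus the sum of both drugs' effects 2. The causes were not tested. Leaving out each array in turn gave 0 to 3 calls for P/C, 2 to 6 for P, 0 to 3 for C, 1 to 4 for P against C, 0 to 2 for P/C against P, 0 to 2 for P/C against C and 0 to 1 for P/C minus that sum, and none at 8 h. Without untreated replicate 2 the counts were 0 for P/C and 2 for P. The 8 h block, leaving out P/C replicate 3 with C replicate 1, a filter of a signal of 100 on 4 arrays, and leaving out P/C and C replicates 1 in the unfiltered fit were chosen after the data were seen. Most listed genes lie under a signal of 100, where a difference may not be detectable.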
